A study of Mus musculus with 6 samples.

Results

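The BCL2 family decides at the outer membrane of mitochondria whether a cell enters intrinsic apoptosis. Survival proteins hold death effectors in check, BH3-only proteins respond to stress and damage by binding the survival proteins or by activating the effectors, and activated effectors open pores in the membrane that release cytochrome c. Hematopoietic stem cells are known for their need of MCL1, and the balance between these classes is set by transcription, by protein turnover and by binding. The expression of 10 genes of this family was followed in LSK cells, a bone marrow fraction of hematopoietic stem and progenitor cells sorted as lineage-negative with Sca1 and c-Kit on the surface. They were chosen by name, as 3 survival genes (*Bcl2*, *Bcl2l1* and *Mcl1*), 3 death effectors (*Bax*, *Bak1* and *Bok*) and 4 BH3-only genes (*Bid*, *Bcl2l11*, *Pmaip1* and *Bbc3*). Each of the 10 names had 1 row among the 54532 genes of the table.

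RNA-seq compared 3 control (CTRL) and 3 *Myh9*-deficient (cKO) LSK cell sets, to ask how gene expression differs in these cells when *Myh9* is deleted. Control mice were *Myh9* fl/fl without cre and the *Myh9*-deficient mice were littermates of the genotype *Myh9* fl/fl;*Mx1-cre*, all on a C57BL/6 background. Both groups carried the floxed alleles and both received poly I:C at 5 mg/kg, which drives the interferon-responsive *Mx1* promoter, while cre was carried by the *Myh9*-deficient mice alone. Whether the interferon response was equal in both groups was not tested. The sample descriptions give 2 doses and the study's methods 3, at 5 to 6 weeks of age, and cells were sorted 4 days after the first injection. *Mx1-cre* acts in other tissues as well as in blood cells, and how many mice each cell set came from is not given in the sources used here. The p-values then measure the spread between these sets.

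Values are FPKM, fragments scaled to gene length and to the number of reads in the library, so levels of different genes can be set side by side within a library. Each library held 17571544 to 19894562 reads on genes, and the 10 genes had at least 24 reads in every library. *Myh9* itself measured 22.5 ± 0.495 FPKM in control and 18.7 ± 1.18 FPKM (SD, n = 3) in *Myh9*-deficient LSKs, a log2 change of -0.26 (adjusted p = 0.00642, limma). Its value sums reads over the whole gene, of which the floxed exon is a part, and so does not measure the deletion directly. *Kit*, which encodes c-Kit, measured 23.9 and 21.5 FPKM on average in control and *Myh9*-deficient LSKs (adjusted p = 0.0105, limma), and *Ly6a*, which encodes Sca1, 95.4 and 89.5 FPKM (adjusted p = 0.0833, limma). Of 7 LSK marker genes, 6 were above the filter on low values, with *Mecom* below it.

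What the family shares is the BH3 domain, a short helix with which its members bind each other. The stretch of coding sequence for this helix is shown for 9 of the genes, because it is the feature by which the BH3-only class is named. The sequences are from GENCODE M21 transcripts on GRCm38, 5′ to 3′ on the coding strand. The capitals mark the 6 codons of the BH3 core, which run from a conserved leucine, over 3 residues and a small residue, to a conserved aspartate.
Bcl2: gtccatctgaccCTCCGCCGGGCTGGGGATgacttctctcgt
Bcl2l1: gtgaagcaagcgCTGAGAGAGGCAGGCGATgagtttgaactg
Mcl1: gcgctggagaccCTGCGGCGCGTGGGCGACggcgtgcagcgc
Bax: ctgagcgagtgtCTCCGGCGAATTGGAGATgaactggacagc
Bak1: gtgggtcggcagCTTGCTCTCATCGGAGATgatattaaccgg
Bok: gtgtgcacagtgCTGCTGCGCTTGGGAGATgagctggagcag
Bid: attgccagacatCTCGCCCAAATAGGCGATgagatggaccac
Bcl2l11: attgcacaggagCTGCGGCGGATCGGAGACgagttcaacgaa
Bbc3: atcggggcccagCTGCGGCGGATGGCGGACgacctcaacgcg

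The pattern occurred once in each of these 9 proteins, at residues 94 of 236 in *Bcl2*, 63 of 192 in *Bax* and 150 of 196 in *Bcl2l11*, for example. The first codon was a CTN leucine codon in 9 of 9 stretches. The fifth codon was a GGN glycine codon in 8 and a GCN alanine codon in 1, that of *Bbc3*. The stretches were found by searching for leucine, 3 residues, glycine or alanine, and aspartate. These residues were therefore fixed by the search, and the codon counts do not measure their conservation. The stretches lie on chromosomes 1 (*Bcl2*, minus strand, exon 1 of 2, chr1:106712572-106712613), 2 (*Bcl2l1*, minus strand, exon 2 of 3, chr2:152829694-152829735, and *Bcl2l11*, plus strand, exon 3 of 4, chr2:128147138-128147179), 3 (*Mcl1*, plus strand, exon 1 of 3, chr3:95659424-95659465), 6 (*Bid*, minus strand, exon 4 of 6, chr6:120897286-120897327), 7 (*Bax*, minus strand, exon 3 of 6, chr7:45465994-45466035, and *Bbc3*, plus strand, exon 3 of 4, chr7:16313761-16313802) and 17 (*Bak1*, minus strand, exon 4 of 6, chr17:27022528-27022569). In *Bok* on chromosome 1 (plus strand) the stretch is split by an intron between exons 2 and 3, from 93686645 to 93689173. The values below are sums over a whole gene, so they do not separate splice forms with and without this helix.

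In *Myh9*-deficient LSKs, *Bcl2* and *Mcl1* fell while *Bcl2l1* rose, *Bax* and *Bok* rose while *Bak1* did not pass the test, and the 4 BH3-only genes fell. In total 3 of the 10 genes were higher and 6 were lower at an adjusted p under 0.05 (limma, Benjamini-Hochberg over the 11552 genes tested), where 19.9% of all genes tested were higher, 20.6% were lower and 40.5% were called in either direction. *Bok* had a control mean below the filter of 1 FPKM and entered the test through its level in *Myh9*-deficient LSKs, and among the other 9 genes 2 were higher and 6 lower. The median log2 fold change of the 10 genes was -0.22, beside -0.01 over all genes tested. The ranges over libraries were separate for 9 of the 10 genes, 3 above and 6 below control, where this held for 54% of all genes tested (25.5% above and 28.5% below). At the study's threshold of more than 2-fold with an unadjusted p under 0.05, 0 of the 10 genes were called on the log2(FPKM + 1) scale, on which 2.13% of all genes were. This count depends on the pseudocount, since *Bok* had a log2 change of 0.72 on that scale, 1.17 with a pseudocount of 0.1, 1.26 by voom on recovered reads and 1.28 as a ratio of means. Of these 10, 9 had an unadjusted p under 0.05 in this limma fit, for which the share over all genes was not counted. Voom on recovered reads called 9 of the 10 at an adjusted p under 0.05. Over all 11552 genes tested, it called 2725 higher and 2546 lower.

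**Figure D1:**
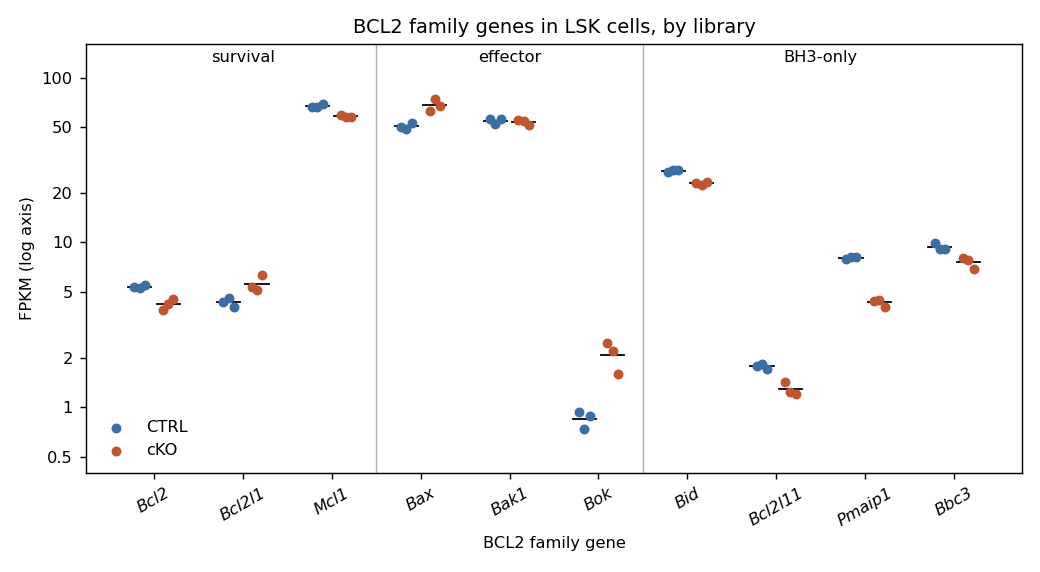
FPKM on a log axis for the 10 BCL2 family genes, grouped by role, with 1 point for each library (3 CTRL, 3 cKO) and a line at each group's mean. The points of the groups are apart for every gene but *Bak1*, with *Bcl2l1*, *Bax* and *Bok* higher and the other 6 lower in cKO.

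Among the survival genes, *Mcl1* (ENSMUSG00000038612, chromosome 3 from 95658788 to 95663176) was the most abundant. MCL1 is a short-lived protein that sequesters BAK and several BH3-only proteins. *Mcl1* measured 66.6, 66.3 and 68.8 FPKM in the control libraries and 59.4, 57.9 and 57.5 FPKM in the *Myh9*-deficient libraries. The groups were apart, with even the highest *Myh9*-deficient library under the lowest control. The mean fell by 13.4%, or -0.20 ± 0.028 (SE) on the log2 scale (adjusted p = 0.00173, limma).

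*Bcl2* (ENSMUSG00000057329, chromosome 1 from 106538178 to 106714274), the founding member, encodes the survival protein that restrains BAX and BIM. It measured 5.33, 5.31 and 5.51 FPKM in control and 3.87, 4.2 and 4.53 FPKM in *Myh9*-deficient LSKs. The groups did not overlap, and the *Myh9*-deficient libraries were more spread (SD 0.329 against 0.111 FPKM). The mean fell by 22.0% (log2 change -0.30 ± 0.059 SE, adjusted p = 0.00780, limma).

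*Bcl2l1* (ENSMUSG00000007659, chromosome 2 from 152780668 to 152831728) encodes BCL-XL, the survival protein on which late erythroid cells and platelets depend. It measured 4.35, 4.60 and 4.04 FPKM in control and 5.34, 5.17 and 6.33 FPKM in *Myh9*-deficient LSKs. Each *Myh9*-deficient library was above every control library, the reverse of *Bcl2* and *Mcl1*. The mean was 29.5% higher (log2 change 0.31 ± 0.079 SE, adjusted p = 0.0215, limma), and the call was lost without CTRL replicate 1 (log2 change 0.31, adjusted p = 0.0586) or CTRL replicate 3 (0.27, adjusted p = 0.0675), with similar values under all 6 omissions (0.23 to 0.36).

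Among the death effectors, *Bax* (ENSMUSG00000003873, chromosome 7 from 45461697 to 45466898) encodes a pore-forming protein that moves from the cytosol to mitochondria when activated. It measured 50, 48.7 and 53.4 FPKM in control and 62.4, 74.4 and 67.3 FPKM in *Myh9*-deficient LSKs. The lowest *Myh9*-deficient library stood clear of the highest control library. The mean was 34.3% higher (log2 change 0.42 ± 0.067 SE, adjusted p = 0.00354, limma).

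*Bak1* (ENSMUSG00000057789, chromosome 17 from 27019810 to 27029009) encodes the other main pore-forming effector, which resides on mitochondria. It measured 56.4, 52.0 and 56.2 FPKM in control and 55.3, 54.5 and 51.7 FPKM in *Myh9*-deficient LSKs. These ranges overlapped over most of their width. The log2 change of -0.03 ± 0.043 (SE) did not pass the test (adjusted p = 0.669, limma).

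*Bok* (ENSMUSG00000026278, chromosome 1 from 93685660 to 93695764) encodes a related effector that is controlled through its degradation. It had the lowest level of the 10 genes in control, with 0.929, 0.740 and 0.878 FPKM from 34, 24 and 31 reads. In *Myh9*-deficient LSKs it measured 2.44, 2.18 and 1.58 FPKM from 84, 73 and 54 reads. The lowest *Myh9*-deficient library was above the highest control library, and *Bok* had the largest ratio of means among the 10 genes, 2.43. On log2(FPKM + 1), which understates changes at low values, the log2 change was 0.72 ± 0.12 (SE) (adjusted p = 0.00406, limma).

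The BH3-only genes had lower values in *Myh9*-deficient LSKs in 4 of 4 cases. *Pmaip1* (ENSMUSG00000024521, chromosome 18 from 66458604 to 66465550) encodes NOXA, a p53-inducible protein that neutralizes MCL1. It measured 7.91, 8.15 and 8.11 FPKM in control and 4.44, 4.48 and 4.08 FPKM in *Myh9*-deficient LSKs. The libraries of each group lay close together, far from those of the other group. The mean fell by 46.2% (log2 change -0.76 ± 0.047 SE, adjusted p = 6.57e-05, limma), which was the smallest p of the 10 genes.

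*Bid* (ENSMUSG00000004446, chromosome 6 from 120891930 to 120916853) links death receptors to mitochondria, since caspase-8 cleaves its protein into the active form. Among the BH3-only genes chosen here it was the most abundant. It measured 26.9, 27.4 and 27.5 FPKM in control and 22.9, 22.3 and 23.3 FPKM in *Myh9*-deficient LSKs. The groups were separate, and the mean fell by 16.3% (log2 change -0.25 ± 0.030 SE, adjusted p = 0.00109, limma). *Bid* shares part of its span with *Bcl2l13* on the other strand (9.40 and 8.96 FPKM on average), and how reads in that part were assigned is not given in the sources used here. No other of the 10 genes was overlapped by a gene that reached 1 FPKM in a library.

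*Bbc3* (ENSMUSG00000002083, chromosome 7 from 16308393 to 16318205) encodes PUMA, a p53-inducible protein that binds every survival protein. It measured 9.87, 9.06 and 9.10 FPKM in control and 8.02, 7.85 and 6.88 FPKM in *Myh9*-deficient LSKs. All *Myh9*-deficient libraries were below all control libraries. The log2 change was -0.27 ± 0.064 (SE) (adjusted p = 0.0160, limma), or -0.23 with an adjusted p of 0.0549 without CTRL replicate 1.

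*Bcl2l11* (ENSMUSG00000027381, chromosome 2 from 128126038 to 128162547) encodes BIM, which rises when cytokines are withdrawn and is a target of FOXO3. It measured 1.79, 1.84 and 1.70 FPKM in control and 1.42, 1.24 and 1.20 FPKM in *Myh9*-deficient LSKs. The groups did not overlap. The log2 change was -0.28 ± 0.072 (SE) (adjusted p = 0.0212, limma). This call was lost without CTRL replicate 1 or 2 or cKO replicate 2 or 3 (log2 fold change -0.28 to -0.25, adjusted p = 0.0572 to 0.0682) and after trends with GC content and length were removed (-0.21, adjusted p = 0.0608).

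**Figure D2:**
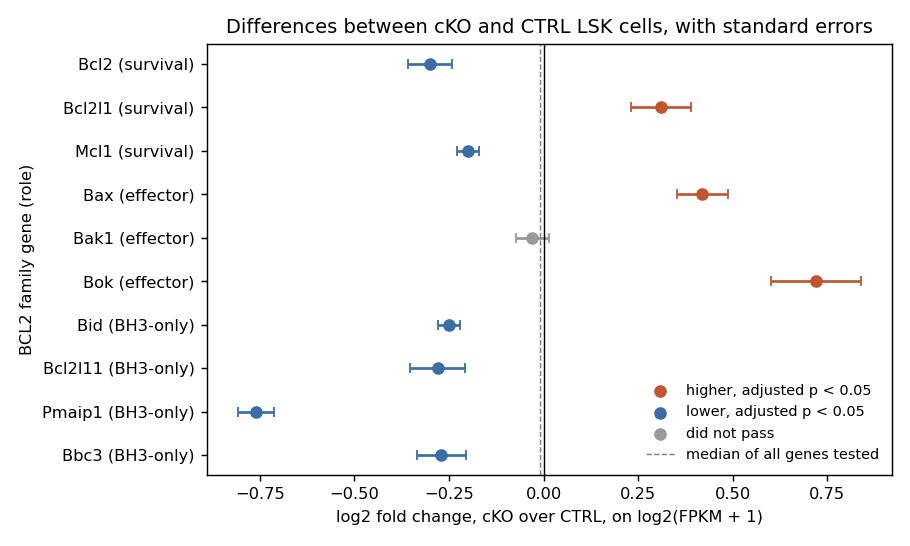
Log2 fold change of each BCL2 family gene, cKO over CTRL on log2(FPKM + 1), with its standard error from limma and a dashed line at the median of all genes tested. The BH3-only genes lie left of 0 between -0.76 and -0.25, *Bax* and *Bok* lie right of it at 0.42 and 0.72, and *Bcl2* and *Bcl2l1* mirror each other at -0.30 and 0.31.

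The order of the levels in control LSKs was *Mcl1*, *Bak1*, *Bax*, *Bid*, *Bbc3*, *Pmaip1*, *Bcl2*, *Bcl2l1*, *Bcl2l11* and *Bok*, from 67.3 to 0.849 FPKM on average. Of these neighbours, *Bak1* and *Bax* overlapped between libraries (52.0 to 56.4 and 48.7 to 53.4 FPKM) and the others did not. In *Myh9*-deficient LSKs the order was *Bax*, *Mcl1*, *Bak1*, *Bid*, *Bbc3*, *Bcl2l1*, *Pmaip1*, *Bcl2*, *Bok* and *Bcl2l11*, from 68.0 to 1.29 FPKM, with overlap between *Pmaip1* and *Bcl2* alone. *Bax* thus stood above *Mcl1*, *Bcl2l1* above *Bcl2*, and *Bok* above *Bcl2l11*, each the reverse of the order in control.

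The summed level of the 10 genes was 224 to 235 FPKM in control and 224 to 234 FPKM in *Myh9*-deficient LSKs, ranges that overlapped. The effectors took 46.6%, 45.3% and 46.9% of this sum in control and 53.3%, 56.0% and 53.7% in *Myh9*-deficient LSKs. The share of the survival genes was 33.2%, 34.0% and 33.3% in control and 30.4%, 28.7% and 30.5% in *Myh9*-deficient LSKs. The BH3-only share was 20.2%, 20.7% and 19.7% against 16.3%, 15.3% and 15.8%. No share overlapped between the groups, and since scores over chosen genes were not tested, these shares are a description. They are weighted towards *Mcl1*, *Bax* and *Bak1*, the most abundant genes. The BH3-only share leaves out *Bad*, a further BH3-only gene that rose, from 24.4 to 28.8 FPKM on average.

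Within single libraries, *Bax* stood at 9.38, 9.17 and 9.68 times the level of *Bcl2* in control and at 16.1, 17.7 and 14.8 times in *Myh9*-deficient LSKs. The ratio of *Bax* to *Mcl1* was 0.750, 0.734 and 0.776 in control and 1.05, 1.29 and 1.17 in *Myh9*-deficient LSKs. Both ratios were higher in every *Myh9*-deficient library. Against *Bcl2l1*, in contrast, *Bax* stood at 11.5, 10.6 and 13.2 in control and at 11.7, 14.4 and 10.6 in *Myh9*-deficient LSKs, ranges that overlapped. The ratio of *Bcl2l1* to *Bcl2*, chosen after its values were seen, was 0.816, 0.867 and 0.734 in control and 1.38, 1.23 and 1.40 in *Myh9*-deficient LSKs. The ratio of *Pmaip1* to *Mcl1*, a BH3-only gene to the survival gene whose protein NOXA binds, was 0.119, 0.123 and 0.118 in control and 0.0748, 0.0774 and 0.0710 in *Myh9*-deficient LSKs. These ratios are of RNA levels and carry no test.

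**Figure D3:**
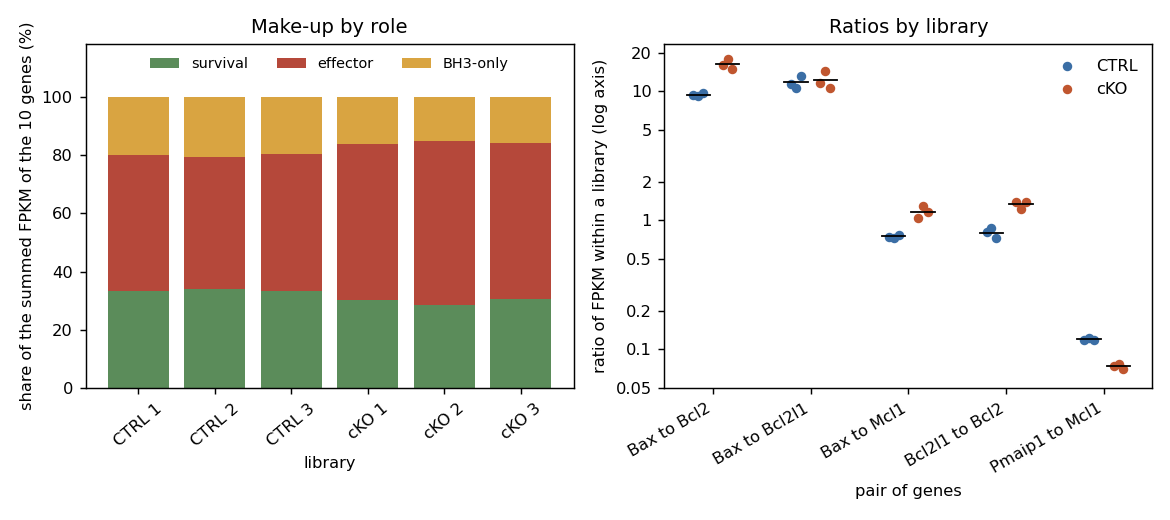
Left, the share in percent of the summed FPKM of the 10 genes taken by survival, effector and BH3-only genes in each library, and right, ratios of FPKM between pairs of genes within each library on a log axis, with group means as lines. The effector share is 45.3% to 46.9% in CTRL and 53.3% to 56.0% in cKO, and *Bax* to *Bcl2l1* is the pair whose groups overlap.

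The promoters of *Bax* and *Bcl2* are shown as those of an effector that rose and a survival gene that fell. They are 250 bases before the RefSeq start site on GRCm38.p6, minus strand, 5′ to 3′ (chr7:45466899-45467148 and chr1:106714291-106714540). The capitals mark a CACGTG match in *Bax* (an E box) and a TGACG match in *Bcl2* (part of a cAMP response element), which begin 9 and 107 bases before the start site.
Bax: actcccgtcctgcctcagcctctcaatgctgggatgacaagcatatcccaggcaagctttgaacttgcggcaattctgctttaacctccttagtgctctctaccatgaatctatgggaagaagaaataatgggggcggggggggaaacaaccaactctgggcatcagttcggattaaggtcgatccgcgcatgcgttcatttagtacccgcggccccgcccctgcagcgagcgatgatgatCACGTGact
Bcl2: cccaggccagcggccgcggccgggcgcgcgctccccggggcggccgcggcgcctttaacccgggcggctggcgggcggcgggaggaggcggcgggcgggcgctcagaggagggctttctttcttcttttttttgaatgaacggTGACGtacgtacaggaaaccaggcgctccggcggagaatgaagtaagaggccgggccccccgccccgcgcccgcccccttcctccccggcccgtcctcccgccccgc

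Letters were searched on both strands in such windows of 9 of the genes and of all 32851 start sites. CACGTG was in the windows of *Bax* and *Bbc3* and in 6.02% of all windows. TGACG was in those of *Bcl2* and *Bbc3* and in 17.8% of all, CCAAT in those of *Bcl2l11* and *Bbc3* and in 33.8%, and GCGGGGGCG, a letter string bound by EGR factors, in those of *Bcl2l11* and *Bbc3* and in 2.57%. TGANTCA, the AP-1 letters, was in none of the windows of these 9 genes and in 6.75% of all. *Bbc3* and *Bcl2l1* each had 3 windows and *Bcl2l11* had 2, and the matches of *Bbc3* were in 1 of its windows for each motif. Genes that rose and genes that fell both had matches, and a match of letters is a description of the window.

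The other members of the family were mostly low in LSKs. Of 15 further genes, 6 were tested, 1 rose and 1 fell at an adjusted p under 0.05, with a median log2 fold change of 0.04. *Bad*, a BH3-only gene whose protein is held inactive by phosphorylation, rose from 24.4 ± 1.20 to 28.8 ± 1.31 FPKM (SD, n = 3; log2 change 0.23, adjusted p = 0.00997, limma). It thus went the other way from the 4 BH3-only genes above. *Bnip3l*, which encodes a mitophagy receptor, fell from 31.4 to 26.7 FPKM (log2 change -0.23, adjusted p = 0.00116, limma). *Hrk* and *Bcl2l10* were listed at 0 in every library. *Bcl2a1a*, *Bcl2a1b* and *Bcl2a1d*, near-identical copies among which reads can be shared, were listed at 0 in at least 1 library each.

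Downstream of the mitochondria, 15 genes of the apoptosome, the caspases and their inhibitors were tested, of which 3 rose and 4 fell, with a median log2 fold change of 0.01. These 7 calls of 15 stand beside 40.5% called over all genes tested, as do the 2 of 6, 6 of 11 and 4 of 7 in the other pathway lists. *Apaf1*, the scaffold of the apoptosome, fell from 5.19 to 3.69 FPKM (log2 change -0.40, adjusted p = 0.00450, limma), and *Casp9*, the initiator caspase it activates, from 3.89 to 3.07 FPKM (-0.27). *Endog* (0.29) and *Htra2* (0.12), which encode proteins released from mitochondria, rose on the log2 scale. *Xiap*, a caspase inhibitor, also fell (-0.24). *Cycs*, which encodes cytochrome c, measured 64.8 and 66.6 FPKM and did not pass (adjusted p = 0.591, limma). The count of 7 called became 4 with no filter on low values, with a mean of at least 5 FPKM or without moderation of the variance.

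Of 12 genes whose products act on the family, 11 were tested, 2 rose and 4 fell (median log2 fold change -0.07). *Pim1*, whose kinase phosphorylates and silences BAD, fell from 98.5 ± 0.880 to 57.2 ± 3.64 FPKM (SD, n = 3; log2 change -0.77, adjusted p = 6.01e-05, limma). *Foxo3*, a transcription factor of *Bcl2l11* and *Bbc3*, fell from 10.4 to 8.23 FPKM (-0.30), and both of these genes were lower. *Casp8* (-0.19), whose protease cleaves BID, was lower, as was *Bid*. Whether any of these falls are linked was not tested. In the other direction, *Vdac2*, which encodes a mitochondrial channel that binds BAK and BAX, rose from 58.5 to 67.0 FPKM (0.19), and *Akt1*, whose kinase phosphorylates BAD, rose by 0.08 on the log2 scale. *Fadd*, which encodes the adaptor of caspase-8, was lower as well (-0.16, adjusted p = 0.0356, limma).

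*Bax*, *Pmaip1* and *Bbc3* are known targets of p53, whose gene *Trp53* measured 81.3 and 83.1 FPKM (log2 change 0.03, adjusted p = 0.423, limma). Of 10 further p53 targets, 7 were tested, 3 rose and 1 fell, with a median log2 fold change of 0.23. *Phlda3*, a repressor of AKT, rose from 3.33 to 7.29 FPKM (0.94), *Aen*, a nuclease, from 11.1 to 15.2 FPKM (0.41) and *Ccng1* from 17.2 to 20.3 FPKM (0.23), in the direction of *Bax*. *Cdkn1a*, which encodes the cell cycle inhibitor p21, fell from 13.1 to 8.64 FPKM (-0.55, adjusted p = 0.00265, limma), in the direction of *Pmaip1* and *Bbc3*. The p53 targets thus went both ways in these cells.

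**Figure D4:**
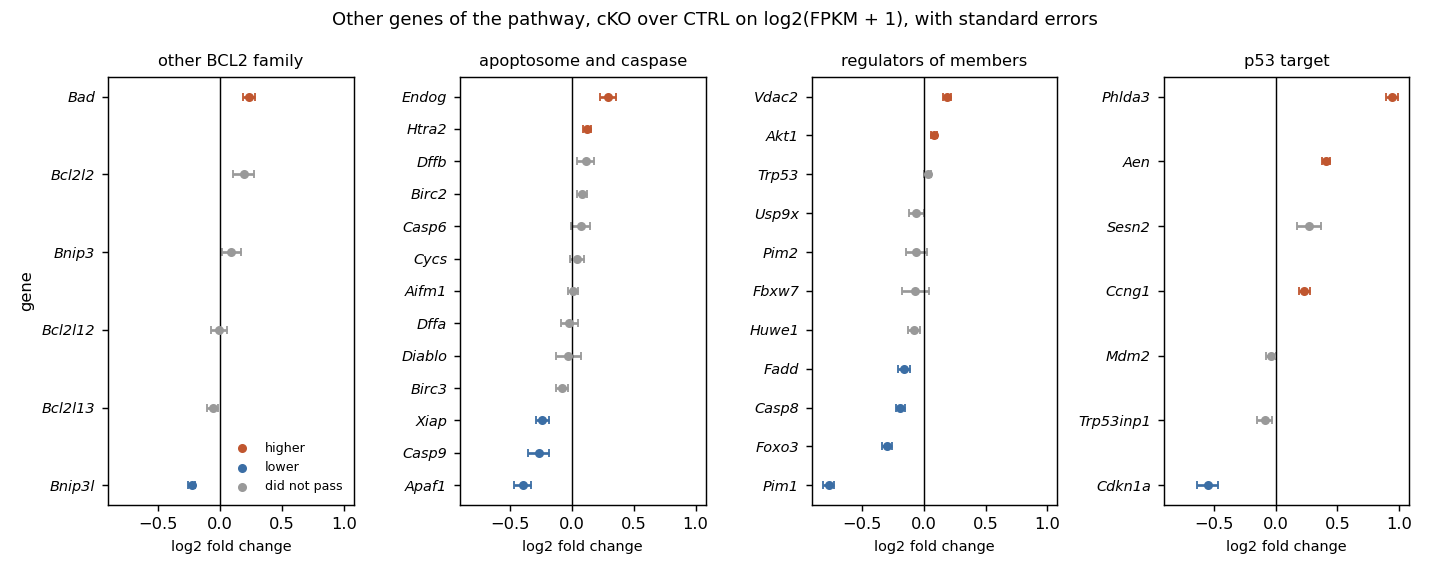
Log2 fold changes with standard errors, cKO over CTRL on log2(FPKM + 1), for tested genes of 4 lists: other BCL2 family genes, apoptosome and caspase genes, regulators of the 10 genes, and p53 targets. Genes on both sides of 0 passed the test in every list, with *Phlda3* (0.94) farthest right and *Pim1* (-0.77) farthest left.

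Genes of other cell types and of recent stimulation also differed between these libraries. In bulk samples, fewer cells of a type and less RNA per cell cannot be told apart. Of 12 erythroid markers, 9 were tested and 9 rose, their summed level being 427 to 432 FPKM in control and 767 to 793 FPKM in *Myh9*-deficient LSKs, with *Hba-a2*, *Slc4a1* and *Alas2* listed at 0 in at least 1 library. Most of that sum was *Car1*, at 344 and 618 FPKM on average, and *Hbb-bs* and *Hba-a1* (0.55 and 0.812 FPKM in control) entered the test through their level in *Myh9*-deficient LSKs. Of 7 megakaryocyte markers, 3 were tested and 3 rose (57.6 to 61.2 against 126 to 131 FPKM), with *Gp1bb* listed at 0 throughout. Of 10 neutrophil and monocyte markers, 8 were tested and 7 fell (6998 to 7044 against 3606 to 3657 FPKM, mostly *Elane* and *Mpo*). Of 6 mast cell and basophil markers 5 rose (90.3 to 102 against 149 to 158 FPKM), of which *Cma1* and *Fcer1a* (0.36 and 0.511 FPKM in control) entered the test through their level in *Myh9*-deficient LSKs. The B and plasma cell markers summed to 229 to 232 FPKM in control and 209.7 to 216 FPKM in *Myh9*-deficient LSKs, with *Ms4a1* listed at 0 in some libraries, 3 of 6 tested genes higher and 2 lower, of which *Cd79a* (0.743 FPKM in control) entered the test in the same way. The T and NK cell markers summed to 366 to 378 and 338 to 342 FPKM, with *Cd3e* and *Cd8a* listed at 0 in some libraries, 3 of 4 tested genes higher and 1 lower. That sum was nearly all *Nkg7*, the gene that fell, at 353 and 279.6 FPKM on average, while *Trbc2* (1.22 and 6.13), *Ccl5* (10.1 and 35.5) and *Gzmb* (5.04 and 15.9 FPKM) rose. The 12 immediate early genes tested, a class that cells induce within minutes of a stimulus, fell in 12 cases, from a sum of 901 to 924 FPKM to 443 to 465 FPKM. The part of these cell types and of this stimulus response in the differences of *Bcl2l1*, *Mcl1*, *Pmaip1* and the other family genes was not tested.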

How the data were processed

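Total RNA of sorted LSK cells was sequenced in 3 control and 3 *Myh9*-deficient libraries, grouped by the sample titles. Per the processing notes of the submitters, reads were aligned with HISAT2 2.0.5 to mm10; the counting program is not given in the sources used here. The authors deposited FPKM and gene lengths for 54532 genes. FPKM times length was a whole multiple of 1 step per library for 100% of values (relative tolerance 0.001), which gave the reads. Intervals or floors from these reads would cover counting error only. The 11552 genes that averaged 1 FPKM or more were tested on log2(FPKM + 1) with limma 3.58.1 (lmFit, eBayes with a trend, two-sided, Benjamini-Hochberg; R 4.3.3, data.table version 1.17.8), after a test on simulated data. An exact permutation test of any gene alone, with 3 libraries in each group, has 0.1 as its smallest two-sided p. The family genes, lists and tests were chosen with earlier results of these data known. Named genes were the 10 family genes, *Myh9*, *Kit*, *Ly6a*, markers listed at 0, and at most 3 rises and 3 falls per pathway list; the others named were chosen after their values were seen. Alternatives were another pseudocount, filters, scalings, variance models, a replicate block, leaving out each library, voom on recovered reads and, chosen after seeing the data, removal of GC content and length trends. The plots and summaries used Python 3.11.15 (pandas 2.3.3, numpy 2.4.6, matplotlib 3.10.9, Biopython 1.88). Coding sequences came from GENCODE M21 and promoters from RefSeq (GRCm38.p6); start sites of 9 of the 10 genes were used. Some genes of the lists are counted but not reported here by name.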

Additional observations from a re-analysis of the deposited data

How the results depend on the processing

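Directions of the 10 genes were the same under every alternative run, except that *Bak1*, which was not called, had a log2 fold change of -0.06 to 0.0026 over the fits that left out 1 library each (positive without cKO replicate 3). *Bcl2*, *Mcl1*, *Bax*, *Bid* and *Pmaip1* passed in every fit that tested them, as did *Bok*. Without moderation of the variance, *Bcl2l1* (0.31, adjusted p = 0.0689) and *Bbc3* (-0.27, adjusted p = 0.056) lost their calls, and with GC content and length trends removed *Bcl2l11* did (-0.21, adjusted p = 0.0608). Leaving out 1 library gave *Bcl2l1* 0.23 to 0.36, *Bcl2l11* -0.32 to -0.25 and *Bbc3* -0.31 to -0.21, with calls lost as named above. With these omissions, 2 to 3 of the 10 genes were higher and 4 to 6 lower. A mean of at least 5 FPKM left 6 of the 10 genes, 1 of them higher, because fewer genes were tested. The apoptosome and caspase genes called numbered 4 with no filter on low values, with a mean of at least 5 FPKM, and without moderation. The fit with no filter holds many genes with no variance, on which moderation is less reliable. Scaling moved the median of all genes by less than 0.1 on the log2 scale. The causes of these changes, other than the number of genes or libraries, were not tested.

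Libraries with the same number did not deviate together (correlations across genes of -0.005, -0.011 and -0.026), so the numbers were not taken as pairs. With a replicate block, 2 of the 10 genes were higher and 6 lower, *Bcl2l1* having 0.31 with an adjusted p of 0.057, and 2063 genes were higher and 2044 lower overall against 2295 and 2378 without it. At 24 to 34 reads in control, *Bok* is the gene whose level is least precisely counted.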
